A study of Homo sapiens with 6 samples.

Results

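The genes described here are 10 markers and drivers of the epithelial to mesenchymal transition, taken by symbol from the deposited count table: the cadherins CDH1 and CDH2, the transcription factors ZEB1 and SNAI2, the cytoskeletal and membrane proteins VIM and PDPN, and the matrix genes FN1, SPARC, COL1A1 and COL1A2. All 10 had 1 row each among the 26524 genes of the table, and all 10 passed the filter on low counts that left 14964 genes for testing. RNA was sequenced from SCC25, an established human line of squamous tongue carcinoma, with 3 control samples (genotype and treatment given as control) and 3 samples carrying a short hairpin against LIS1, the product of PAFAH1B1 (genotype given as knockdown, treatment as Knockdown_LIS1). These are called shLIS1 here. It is not labelled whether the controls had a hairpin of their own, whether the hairpin samples came from 1 hairpin sequence or several, or whether the samples were separate cultures. P-values therefore measure the spread between these samples, which may be technical.

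In the epithelial to mesenchymal transition, epithelial cells loosen their cadherin-based junctions and take up a migratory programme. Repressors of the SNAI and ZEB families bind E-box sequences at epithelial genes such as CDH1. Vimentin filaments, N-cadherin, fibronectin and collagens are the usual mesenchymal readouts. In squamous carcinomas of the head and neck a partial form is common, in which cells express mesenchymal and matrix genes such as PDPN while keeping E-cadherin. A loss of CDH1 and a gain of CDH2 together are known as the cadherin switch.

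The comparison of shLIS1 with control asks which of these genes differ once LIS1, which regulates the motor dynein, is reduced. The driver genes ZEB1 and SNAI2 were higher in all 3 shLIS1 libraries, while SPARC, PDPN, VIM, COL1A1 and COL1A2 were lower in all 3. CDH1 was slightly higher, and CDH2 and FN1 did not pass the test. Of the 10 genes, 3 were called higher, against 23.5% of all genes tested, and 5 were called lower, against 24.9% of all genes tested. The calls in either direction were 8 of 10, beside 48.4% over the whole table. The median log2 fold change of the 10 genes was -0.16, and that of all genes tested was -0.011. A call means an adjusted p below 0.05 in edgeR's quasi-likelihood test, with Benjamini-Hochberg adjustment over all 14964 genes.

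Where values are listed by library, they run from library 1 to library 3 in each group. Total counts lay between 15661916 and 22790599 per library, so that a count of 0 would allow between 0.130 and 0.192 CPM (counts scaled to the TMM-adjusted library size), counting error only. PAFAH1B1 itself was at 157, 165 and 154 CPM in the controls and at 111, 109 and 113 CPM in the shLIS1 libraries, which is 69.8% of the control mean. On the second principal component control library 1 stood apart from all others, at 27.1 against values from -16.4 to 3.92. The epithelial label of the cells was checked against 7 markers of squamous epithelium, whose summed level was 13365 to 13682 CPM in control and 12149 to 13076 CPM in shLIS1. All 7 were tested, and 2 rose, 3 fell and 2 did not pass, beside 23.5% higher and 24.9% lower of all genes tested. KRT5, a basal keratin, was at a mean of 5535 CPM in control and fell (log2 fold change -0.26). TP63, the squamous master regulator, was at 616 CPM in control and fell as well (-0.14). KRT14 fell with -0.50, while KRT6A (0.27) and KRT17 (0.17) rose, and SFN and PERP did not pass. Fold changes across the table moved with transcript composition: the log2 fold change had a median of 0.28 in the lowest quintile of GC content and -0.28 in the highest. Each of the 10 genes is therefore given also from a fit whose offset follows the length and GC content of the transcripts. Earlier results of these data prompted this alternative. With that offset 3 of the 7 squamous markers rose, 3 fell and 1 did not pass. The shares of all genes tested with it were 17.7% higher and 24.0% lower. KRT5 lost its call (log2 fold change -0.065), while SFN (0.33) and PERP (-0.19) gained one. KRT6A (0.45), KRT17 (0.52), KRT14 (-0.16) and TP63 (-0.39) kept theirs.

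**Figure D1:**
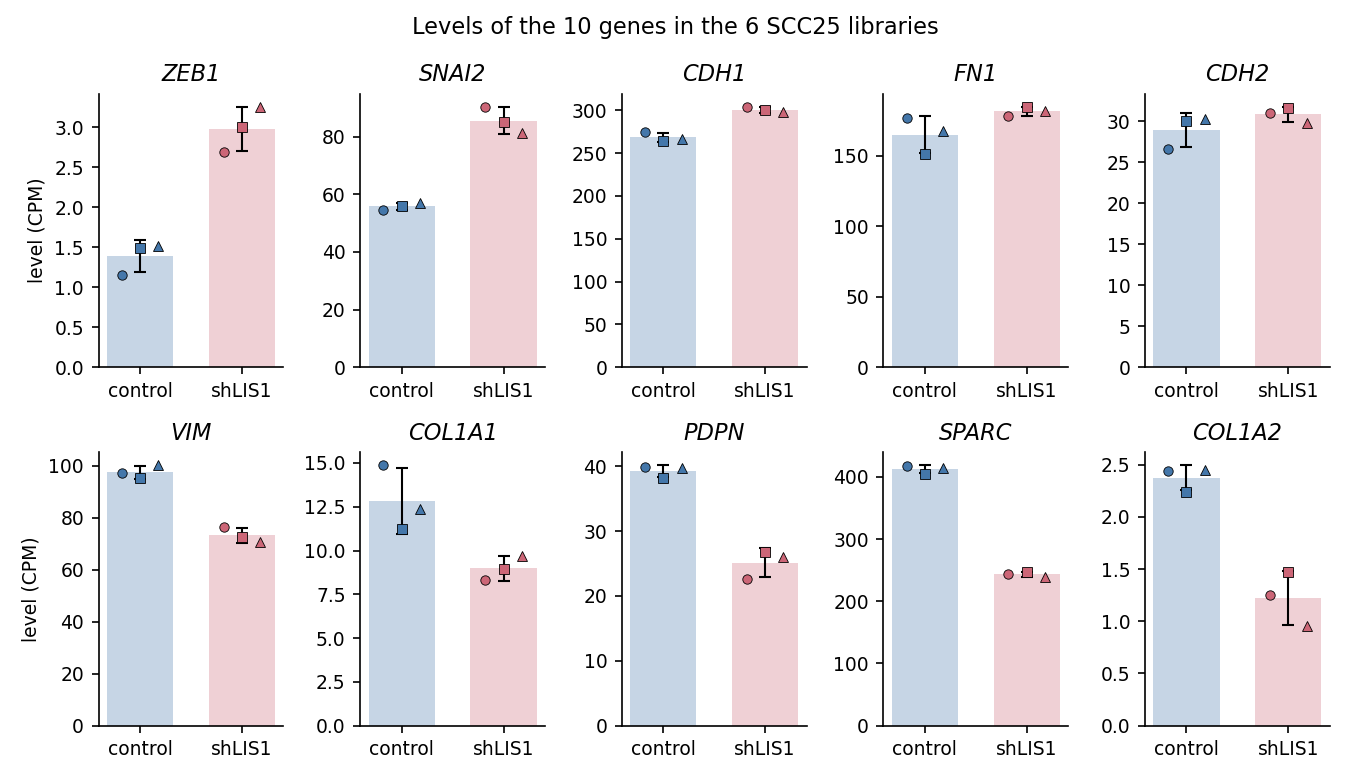
Level of each of the 10 genes (CPM, counts scaled to TMM library sizes, axis from 0) in control (blue) and shLIS1 (red) libraries; bars are means, error bars SD, n = 3 per group, and circles, squares and triangles are libraries 1, 2 and 3. The groups are separate for all genes shown except CDH2, where 56.1% of all genes tested have separate groups. ZEB1 and SNAI2 have the largest fold differences upwards.

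ZEB1 (ENSG00000148516, chromosome 10, 31318495 to 31529814, plus strand, build hg 38) encodes a zinc finger repressor of CDH1 and other epithelial genes. Reads counted to it were 18, 30 and 31 in the controls and 58, 53 and 75 in the shLIS1 libraries. Scaled to library size these were 1.15, 1.49 and 1.52 CPM in control and 2.69, 3.00 and 3.25 CPM in shLIS1. The lowest shLIS1 library was above the highest control library, and the gene was low in both groups, with 19.7% of tested genes at a lower mean CPM. The mean rose from 1.39 ± 0.204 to 2.98 ± 0.280 CPM (SD, n = 3 each), which is 1.09 ± 0.23 in log2 (SE, edgeR adjusted p = 0.00050). It was the only one of the 10 genes called with a change of at least 2-fold in this fit, a size reached upwards by 3.41% of all genes tested. That distinction depended on the setting. Without control library 1 ZEB1 was at 0.98 in log2. COL1A2, at -0.97 in the main fit, was at -1.01 with upper quartile scaling and -1.10 without shLIS1 library 2. ZEB1 has the lowest GC content of the 10, 38.5% in its longest protein-coding transcript. With the length and GC offset the ZEB1 difference was 0.68 ± 0.22 in log2 (SE, edgeR adjusted p = 0.017).

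The antisense gene ZEB1-AS1 lies on the other strand and shares 1953 bases with the start of ZEB1, and no source used here gives the strand setting of the counts. ZEB1-AS1 had counts of 19, 34 and 48 in control and 28, 31 and 37 in shLIS1, so its groups overlapped and it did not pass the test (log2 fold change -0.20, edgeR adjusted p = 0.576). Reads of the pair in the shared stretch cannot be told apart without that setting.

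SNAI2 (ENSG00000019549, chromosome 8, 48917598 to 48921740, minus strand) encodes SLUG, a zinc finger repressor that binds E-boxes and is also a factor of basal keratinocytes. Its level was 54.6, 56.0 and 57.0 CPM in the controls and 90.5, 85.2 and 81.2 CPM in the shLIS1 libraries. The control libraries were tightly grouped, and the 3 shLIS1 libraries lay well above them. The mean rose from 55.9 ± 1.21 to 85.6 ± 4.68 CPM (SD, n = 3 each), which is 0.62 ± 0.06 in log2 (SE, edgeR adjusted p = 6.8e-08). With the length and GC offset the log2 fold change was 0.49 (edgeR adjusted p = 1.9e-07). An unnamed gene on the opposite strand, ENSG00000288761, shares 238 bases with SNAI2 and had at most 11 counts in a library.

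Called genes among the other transcription factors and cofactors of the transition lay in both directions. The shares to set beside this and the following lists are the 23.5% higher and 24.9% lower of all genes tested. Of 24 tested genes on this list, 5 rose, 9 fell and 10 did not pass, with a median log2 fold change of -0.035. With the length and GC offset 4 rose, 6 fell and 14 did not pass, with a median of -0.13, beside 17.7% higher and 24.0% lower of all genes tested with it. The rises with the smallest p were HMGA2, a chromatin architectural protein (log2 fold change 0.71), and ETS1, an ETS family factor (0.64). KDM1A, a histone demethylase that works with SNAI factors, fell (log2 fold change -0.47), and AJUBA, a LIM protein that bridges SNAI factors to their corepressors, fell as well (-0.42). All 4 genes kept their call with the length and GC offset, where HMGA2 was at 0.27 and ETS1 at 0.38.

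CDH1 (ENSG00000039068, chromosome 16, 68737292 to 68835537, plus strand) encodes E-cadherin, the adhesion receptor of epithelial adherens junctions. Its level was 274, 264 and 267 CPM in the controls and 304, 300 and 297 CPM in the shLIS1 libraries. The groups did not overlap, and the distance between them was small. The mean rose from 268 ± 5.03 to 301 ± 3.48 CPM (SD, n = 3 each), to 112% of the control level, which is 0.16 ± 0.05 in log2 (SE, edgeR adjusted p = 0.012). The call was lost with the length and GC offset (log2 fold change 0.093, edgeR adjusted p = 0.117), without control library 3 (adjusted p = 0.0522) and without shLIS1 library 2 (adjusted p = 0.0508). No fit gave a lower CDH1 in shLIS1 among the 15 alternatives run.

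CDH2 (ENSG00000170558, chromosome 18, 27932879 to 28177946, minus strand) encodes N-cadherin, the mesenchymal and neural cadherin. Its level was 26.6, 30.1 and 30.2 CPM in the controls and 31.1, 31.7 and 29.8 CPM in the shLIS1 libraries. It was the only one of the 10 genes whose groups overlapped, since shLIS1 library 3 lay below 2 control libraries. Of all genes tested, 56.1% had groups that did not overlap. The log2 fold change of CDH2 was 0.087 with a 95% interval from -0.073 to 0.25 (edgeR adjusted p = 0.371). It was -0.068 with the length and GC offset (adjusted p = 0.471).

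The pair of cadherins was also set side by side within each library on the per-length scale, which is TPM. For it, counts are divided by the length of the longest protein-coding transcript before they are scaled to the library. The ratio of CDH2 to CDH1 was 0.109, 0.128 and 0.128 in the controls and 0.115, 0.119 and 0.113 in the shLIS1 libraries. The ratios of the groups overlapped, and their means were 0.122 ± 0.0109 and 0.116 ± 0.00298 (SD, n = 3 each). E-cadherin transcripts thus stayed the more abundant of the pair in every library. The ratio of VIM to CDH1 was 0.812, 0.826 and 0.862 in control and 0.575, 0.553 and 0.546 in shLIS1, without overlap, so that its shLIS1 mean was 67.0% of the control mean. With the union of exons as the length the means of that ratio were 0.436 in control and 0.292 in shLIS1. The share of 67.0% could not change, since a length scales the ratio by the same factor in every library. These ratios were described without a test and without the length and GC offset. In the fit with that offset the log2 fold changes were -0.26 for VIM and 0.093 for CDH1, smaller in size than without it.

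The list of adherens junction and epithelial maintenance genes held 24 further genes, all tested. Of these 7 rose, 8 fell and 9 did not pass, with a median log2 fold change of 0.030. EHF, an epithelial ETS factor, rose (log2 fold change 0.40), as did AFDN, which ties nectins to actin (0.45). ELF3, another epithelial ETS factor, fell with -0.88, and JUP, the junctional plaque protein plakoglobin, fell with -0.34. With the length and GC offset 10 of the 24 were higher and 8 lower, with a median of -0.037. The shares of all genes tested with that offset were 17.7% higher and 24.0% lower. EHF was then at 0.24, AFDN at 0.28, ELF3 at -0.77 and JUP at -0.12.

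VIM (ENSG00000026025, chromosome 10, 17228241 to 17237593, plus strand) encodes vimentin, the intermediate filament protein of mesenchymal cells. Its level was 97.1, 95.3 and 100.3 CPM in the controls and 76.4, 72.5 and 70.9 CPM in the shLIS1 libraries. The groups were well separated. The mean fell from 97.6 ± 2.53 to 73.2 ± 2.82 CPM (SD, n = 3 each), which is -0.41 ± 0.06 in log2 (SE, edgeR adjusted p = 3.9e-06). With the length and GC offset it was -0.26 (edgeR adjusted p = 0.00019). VIM-AS1, on the opposite strand, had at most 6 counts in a library.

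PDPN (ENSG00000162493, chromosome 1, 13583465 to 13617957, plus strand) encodes podoplanin, a mucin-type membrane glycoprotein found at the invasive edge of squamous carcinomas. Its level was 39.9, 38.2 and 39.7 CPM in the controls and 22.6, 26.8 and 26.0 CPM in the shLIS1 libraries. The shLIS1 libraries were all below the controls and spread more widely than them. The mean fell from 39.2 ± 0.936 to 25.1 ± 2.25 CPM (SD, n = 3 each), which is -0.64 ± 0.08 in log2 (SE, edgeR adjusted p = 1.1e-06). The offset left it at -0.69 (edgeR adjusted p = 9.0e-08).

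SPARC (ENSG00000113140, chromosome 5, 151661096 to 151686975, minus strand) encodes osteonectin, a collagen-binding matricellular protein. Its level was 418, 405 and 414 CPM in the controls and 243, 248 and 239 CPM in the shLIS1 libraries. Replicates lay close together in both groups, and the shLIS1 libraries held 59.0% of the control level. The mean fell from 412 ± 6.68 to 243 ± 4.18 CPM (SD, n = 3 each), which is -0.76 ± 0.05 in log2 (SE, edgeR adjusted p = 4.0e-10). With the length and GC offset it was -0.84 (edgeR adjusted p = 4.5e-12). Of all genes tested, 89.9% had a smaller absolute log2 fold change than SPARC, and 96.8% had a lower mean CPM. In bulk RNA, fewer expressing cells and less RNA per cell cannot be told apart, for SPARC and for the other genes alike.

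**Figure D2:**
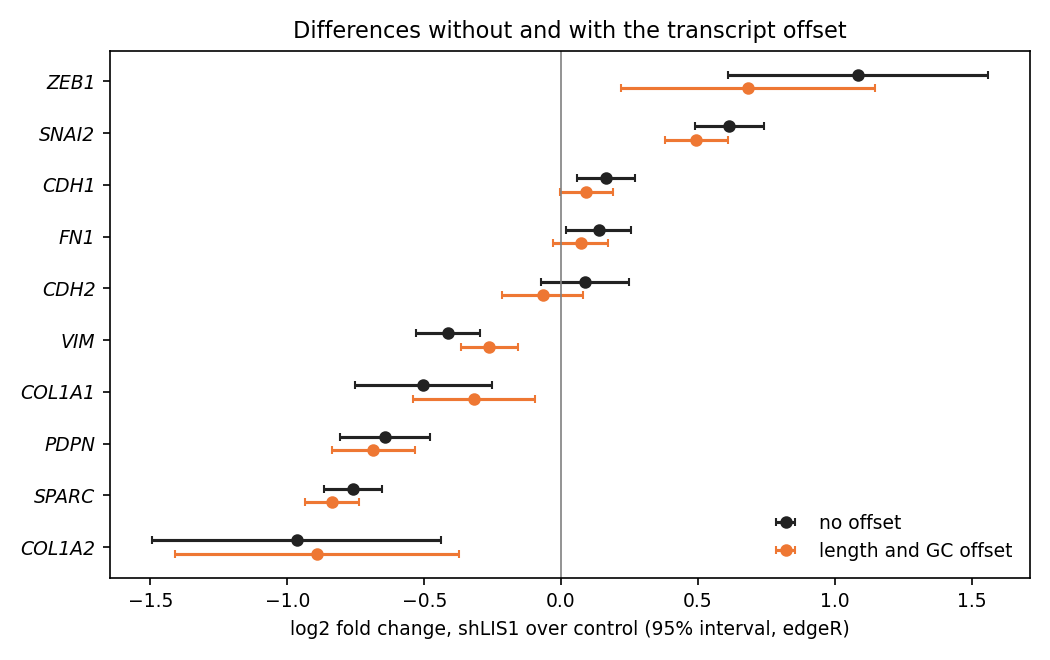
Log2 fold change of each gene, shLIS1 over control, with its 95% interval from edgeR, without an offset (black) and with the length and GC offset (orange). SNAI2, ZEB1, VIM, COL1A1, PDPN, SPARC and COL1A2 stay on their side of 0 in both fits, while the intervals of CDH1 and FN1 reach 0 with the offset and that of CDH2 spans 0 in both.

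FN1 (ENSG00000115414, chromosome 2, 215360440 to 215436073, minus strand) encodes fibronectin, a matrix glycoprotein bound by integrins. Its level was 177, 151 and 168 CPM in the controls and 178, 185 and 182 CPM in the shLIS1 libraries. The groups did not overlap, by a narrow margin between control library 1 and shLIS1 library 1. The means were 165 ± 12.9 and 182 ± 3.44 CPM (SD, n = 3 each), a difference of 0.14 in log2 (95% interval 0.018 to 0.26, edgeR adjusted p = 0.053). The side of the threshold changed with the setting. FN1 was called higher without control library 1 (log2 fold change 0.18, edgeR adjusted p = 0.0041), with RLE scaling (adjusted p = 0.0378), with a filter of 1 CPM in 3 libraries (adjusted p = 0.0455) and with DESeq2 (adjusted p = 0.0499). It was at 0.071 with the length and GC offset (adjusted p = 0.246). Counting separate groups over the 10 genes, FN1 included, 9 did not overlap, against 56.1% of all genes tested.

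COL1A1 (ENSG00000108821, chromosome 17, 50184101 to 50201632, minus strand) and COL1A2 (ENSG00000164692, chromosome 7, 94394895 to 94431227, plus strand) encode the chains of type I collagen. COL1A1 was at 14.9, 11.2 and 12.4 CPM in the controls and at 8.31, 8.94 and 9.71 CPM in the shLIS1 libraries. The groups were separate, and control library 1, which also stood apart in the principal components, was the highest. The mean fell from 12.8 ± 1.87 to 8.98 ± 0.701 CPM (SD, n = 3 each), which is -0.50 ± 0.12 in log2 (SE, edgeR adjusted p = 0.0016). Without control library 1 the log2 fold change was -0.40 (edgeR adjusted p = 0.0068), and with the length and GC offset it was -0.32 (adjusted p = 0.020).

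COL1A2 had counts of 38, 45 and 50 in the controls and 27, 26 and 22 in the shLIS1 libraries. In CPM these were 2.44, 2.24 and 2.45 in control and 1.25, 1.47 and 0.954 in shLIS1. All shLIS1 libraries were below all controls, at levels where few reads decide each value. Its difference was -0.97 ± 0.25 in log2 (SE, edgeR adjusted p = 0.0035), and the offset left it at -0.89 (edgeR adjusted p = 0.0062). The per-length ratio of COL1A1 to COL1A2 was 4.91, 4.04 and 4.05 in control libraries and 5.33, 4.89 and 8.19 in shLIS1 libraries. The ratios of the groups overlapped, and shLIS1 library 3, with the fewest COL1A2 counts, was the highest.

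Levels of markers of other cell types were measured beside the collagen genes. Of 8 fibroblast markers, 7 had a row in the table and 2 were tested. The summed fibroblast level was 3.68 to 4.62 CPM in control and 4.07 to 5.46 CPM in shLIS1, and the defining genes DCN, PDGFRA and THY1 had at most 3 counts over all libraries. LUM, a matrix proteoglycan that made up most of the sum, was at 2.96 ± 0.329 CPM in control and 3.66 ± 0.776 CPM in shLIS1 (SD, n = 3 each) and did not pass (edgeR adjusted p = 0.177). FAP, a fibroblast protease left out of testing by the filter, had 0, 1 and 1 counts in control and 11, 7 and 5 in shLIS1. PDGFRB, a receptor of fibroblasts and pericytes, fell by 1.02 in log2 from a mean of 0.961 CPM (edgeR adjusted p = 0.034), a call that the offset ended (adjusted p = 0.0692). The sum over 4 endothelial markers was 12.8 to 17.2 CPM in control and 7.15 to 8.82 CPM in shLIS1, most of it from the cadherin gene CDH5, which fell with -0.93 (edgeR adjusted p = 4.6e-06), while PECAM1 had at most 8 counts in a library. The part of these markers in the collagen results was not tested. Leukocyte markers summed to at most 1.99 CPM and Schwann and neural markers to at most 1.03 CPM in any library.

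Genes that modify, export and crosslink procollagen were read from a list of 30, of which 27 were tested. Here 12 fell, 5 rose and 10 did not pass, with a median log2 fold change of -0.11. LOXL4, a collagen crosslinking oxidase, fell by 2.07 in log2 from a mean of 4.34 ± 1.14 CPM to 1.04 ± 0.361 CPM (SD, n = 3 each, edgeR adjusted p = 2.1e-06). P4HB, a subunit of the collagen prolyl hydroxylase, fell with -0.28, a call that the offset ended (log2 fold change -0.057, edgeR adjusted p = 0.304). PLOD2, a lysyl hydroxylase, rose with 0.54, and MIA3, which loads procollagen at exit sites of the endoplasmic reticulum, rose with 0.53. With the length and GC offset 5 of the 27 fell and 5 rose, beside 24.0% lower and 17.7% higher of all genes tested. The list median was then -0.011, with PLOD2 at 0.23 and MIA3 at 0.16.

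Among other mesenchymal matrix and surface genes, 34 of 37 were tested, and 11 rose, 11 fell and 12 did not pass, with a median log2 fold change of -0.090. ITGA2, a subunit of a collagen-binding integrin, rose (log2 fold change 0.89), and so did NT5E, the ectonucleotidase CD73 (0.85). FBLN1, a matrix glycoprotein, fell with -0.58, and AXL, a receptor tyrosine kinase, fell with -0.52. With the offset 8 rose and 8 fell, beside 17.7% higher and 24.0% lower of all genes tested, and the list median was -0.0054. ITGA2 was then at 0.50, NT5E at 0.72, FBLN1 at -0.41 and AXL at -0.47. Each of the 4 lists held genes called in both directions, and no set test was made on any of them.

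**Figure D3:**
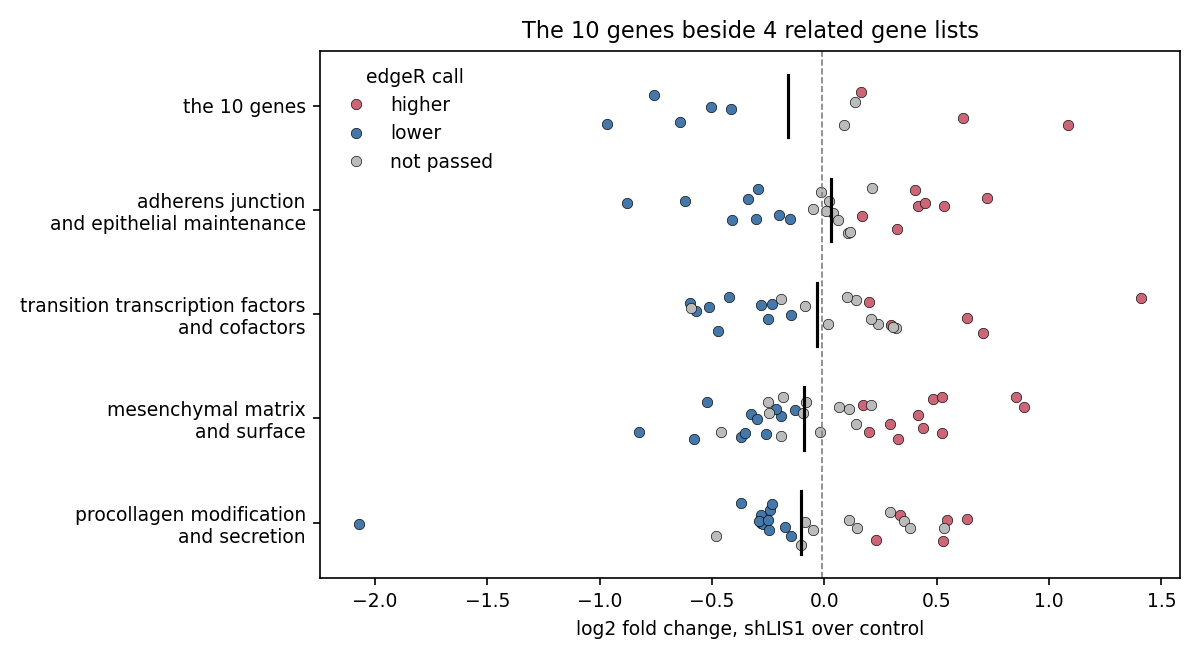
Log2 fold change, shLIS1 over control, of the 10 genes and of each tested gene on 4 related lists; points are single genes coloured by edgeR call, vertical bars are list medians, and the dashed line is the median of all genes tested at -0.011. The list medians lie between -0.11 and 0.030, and that of the 10 genes is at -0.16.

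On the per-length scale the 10 genes covered a wide range. SPARC was the most abundant in control, at 255 ± 3.50 TPM (SD, n = 3), followed by CDH1 at 125 ± 2.00 and VIM at 104 ± 2.70. SNAI2 was at 52.6 ± 1.25, FN1 at 42.4 ± 3.20, PDPN at 28.9 ± 0.629 and CDH2 at 15.3 ± 1.14. The lowest were COL1A1 at 4.36 ± 0.621, COL1A2 at 1.00 ± 0.0494 and ZEB1 at 0.507 ± 0.0755. No neighbouring genes in this order overlapped over the control libraries. In shLIS1 libraries SPARC was at 158 ± 2.08 and CDH1 at 147 ± 2.47, next to each other and still separate. SNAI2, at 84.5 ± 4.98, and VIM, at 82.2 ± 3.59, overlapped with the longest transcript as the length. They did not with the union of all exons, which put them at 85.9 ± 4.94 and 48.3 ± 2.05. With that union PDPN, at 23.0 ± 1.93, and CDH2, at 21.2 ± 0.563, overlapped in shLIS1, which they did not with the longest transcript. ZEB1, at 1.14 ± 0.104, lay above COL1A2, at 0.542 ± 0.112, the reverse of the control order.

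**Figure D4:**
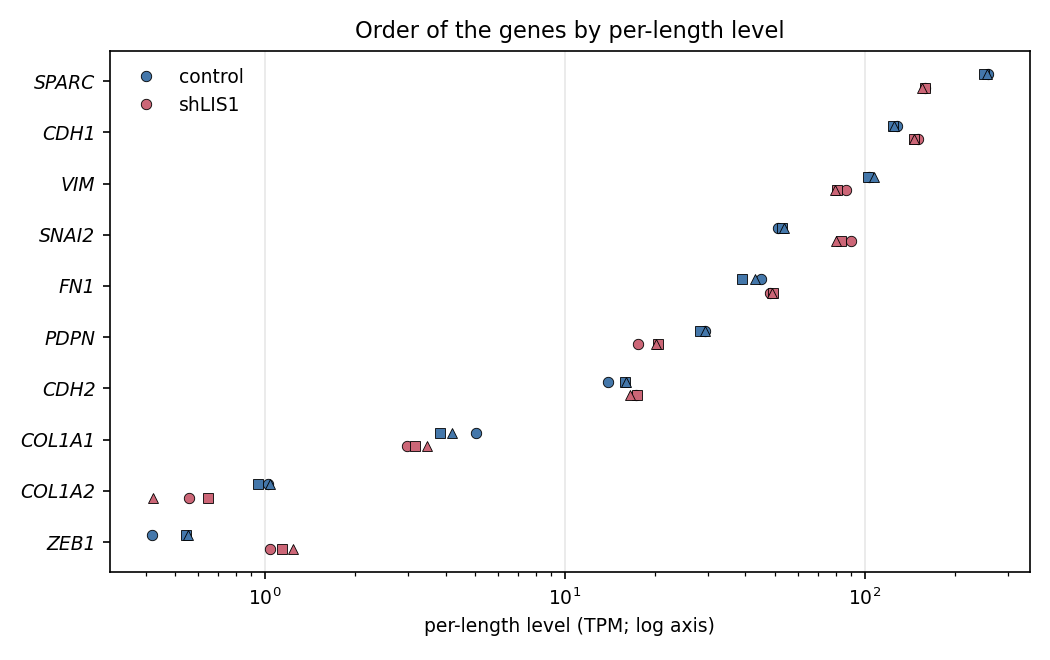
Per-length level of each gene (TPM from the longest transcript, log axis) in control (blue) and shLIS1 (red) libraries, with circles, squares and triangles for libraries 1, 2 and 3. Genes are ordered by their control mean, from SPARC at 255 to ZEB1 at 0.507; in shLIS1 SNAI2 and VIM overlap, which they do not with the union of exons as the length, and ZEB1 lies above COL1A2.

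The 10 genes differ in transcript composition as well as in direction. The GC content of the longest transcript ran from 38.5% in ZEB1 and 41.8% in SNAI2, both higher in shLIS1, to 54.8% in COL1A2 and 61.1% in COL1A1, both lower. The smooth over length and GC content alone, as a difference between the groups, was 0.41 on the log2 scale for ZEB1, 0.16 for CDH2, 0.13 for SNAI2, 0.075 for CDH1 and 0.071 for FN1. It was -0.076 for COL1A2, -0.15 for VIM and -0.18 for COL1A1. For SPARC and PDPN it was 0.079 and 0.044, opposite in sign to their measured changes. With the offset 7 of the 10 genes were called, 2 higher against 17.7% of all genes tested with it, and 5 lower against 24.0%.

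Sequences before the start of transcription were read for the genes with an entry in the RefSeq promoter table (build GRCh38.p14), which were 6 of the 10: CDH2, VIM, FN1, ZEB1, SPARC and PDPN. The windows of SNAI2, CDH1, COL1A1 and COL1A2 were not analysed here. The window was the 250 bases before the start nearest to a principal transcript in GENCODE release 29. ZEB1 had 7 entries, PDPN 3 and CDH2 2, and only 1 was read for each, so their other starts were not searched. The windows read for these 3 genes lie inside the gene spans given above, and those of SPARC and FN1 overlap their spans in part. Searched on both strands were CACCTG, the E-box form bound by SNAI and ZEB factors, TGACTCA, the AP-1 site, GGGCGG, the core of Sp1 sites, CCAAT, and TATAAA. The windows of ZEB1, PDPN, SPARC and VIM are shown because these genes were called in both fits, 1 upwards and 3 downwards, with matches in capitals, 5′ to 3′ on the strand of the gene. They lie at chr10:31318966-31319215 on the plus strand for ZEB1, chr1:13583507-13583756 on the plus strand for PDPN, chr5:151686916-151687165 on the minus strand for SPARC and chr10:17227991-17228240 on the plus strand for VIM.
ZEB1: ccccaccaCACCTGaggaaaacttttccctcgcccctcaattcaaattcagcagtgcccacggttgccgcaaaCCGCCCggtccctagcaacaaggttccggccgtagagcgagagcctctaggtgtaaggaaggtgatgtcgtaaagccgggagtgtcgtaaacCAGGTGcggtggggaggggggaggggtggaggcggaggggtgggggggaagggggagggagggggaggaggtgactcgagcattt
PDPN: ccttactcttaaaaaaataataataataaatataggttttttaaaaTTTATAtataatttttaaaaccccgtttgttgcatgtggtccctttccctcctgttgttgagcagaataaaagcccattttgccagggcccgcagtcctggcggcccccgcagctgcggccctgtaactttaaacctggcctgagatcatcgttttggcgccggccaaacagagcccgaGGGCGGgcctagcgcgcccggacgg
SPARC: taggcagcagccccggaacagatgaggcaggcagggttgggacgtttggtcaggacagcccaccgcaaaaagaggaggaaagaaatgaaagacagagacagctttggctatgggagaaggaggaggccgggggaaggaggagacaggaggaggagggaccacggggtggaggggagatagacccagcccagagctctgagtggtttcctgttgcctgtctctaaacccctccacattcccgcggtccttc
VIM: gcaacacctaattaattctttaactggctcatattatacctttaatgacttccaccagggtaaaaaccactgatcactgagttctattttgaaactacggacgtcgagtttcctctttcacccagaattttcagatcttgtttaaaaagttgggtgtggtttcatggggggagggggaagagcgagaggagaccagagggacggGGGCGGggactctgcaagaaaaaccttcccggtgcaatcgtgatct

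ZEB1 held 2 matches to CACCTG, 1 on each strand, and was the only one of the 6 windows with any, where 17.5% of the 35116 windows in the table hold this motif. A match to GGGCGG was found in the windows of CDH2, VIM, FN1, ZEB1 and PDPN, with 6 in FN1, some of them overlapping one another, against 42.6% of all windows. CCAAT was found in CDH2 and FN1, against 32.0% of all windows, and TATAAA in PDPN, against 10.7%. TGACTCA was found in none of the 6, and 4.20% of all windows hold it. The SPARC window held no match to any of the 5 motifs, which says only that these letters are not in this window.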

How the data were processed

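Libraries were made from polyadenylated RNA of Trizol extracts and carry a dUTP strand mark, per the labels' protocols. The authors deposited whole-number read counts per gene for 6 libraries, with coordinates. The build is hg 38, per the submitters' processing notes. No source used here gives the aligner, counter, annotation release or strand setting.

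The whole table was tested by the quasi-likelihood method of edgeR 4.0.16 (R 4.3.3; glmQLFit with robust estimation, glmQLFTest, group alone). Low counts were removed by filterByExpr at a minimum count of 10 and a minimum total of 15, and libraries were scaled by TMM. The absolute log2 fold change divided by the root of F gave each standard error. Per-length levels, GC content and the offset (mgcv 1.9.3, tensor smooth, basis 6 per axis) used 1 transcript per gene from GENCODE release 29. It was the longest protein-coding transcript, or the longest of any type where a gene had none. This is what the longest transcript means throughout. DESeq2 1.42.0 and limma-voom (limma 3.58.1) were alternatives. The test was checked on simulated counts.

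The 10 genes, the 4 related lists, the marker lists and the alternatives were chosen with earlier results of these data known. Of each related list, up to 2 rises and 2 falls with the smallest p are named. Other named marker genes were chosen after their values were seen. Replicate libraries differed beyond sampling noise, with a chi-square per gene of at least 2.42 within groups.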

Additional observations from a re-analysis of the deposited data

How the results depend on the processing

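Of the 10 genes, SNAI2, ZEB1, VIM, SPARC, PDPN, COL1A1 and COL1A2 kept their direction and their call in all 15 alternatives run, and so did PAFAH1B1, at -0.52 without and -0.81 with the length and GC offset. Leaving out 1 library at a time gave log2 fold changes from 0.16 to 0.17 for CDH1, from 0.025 to 0.12 for CDH2 and from 0.087 to 0.18 for FN1. CDH1 lost its call with the length and GC offset (0.093, edgeR adjusted p = 0.117). FN1 passed with RLE scaling (log2 fold change 0.15), a minimum of 1 CPM in 3 libraries (0.14) and DESeq2 (0.15). CDH2 changed sign with the length and GC offset, to -0.068 (adjusted p = 0.471). The number of genes lower on the procollagen list was 12 without and 5 with that offset. The cause of these changes was not tested. Of 240 refits of the 16 named related genes, 1 lost its call, P4HB with the offset.

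With the exons of all transcripts joined as the length, the control means of the per-length ratios were 0.135 for CDH2 to CDH1, 0.436 for VIM to CDH1 and 6.12 for COL1A1 to COL1A2. A change of length scales a ratio by the same factor in every library, so its direction between the groups could not change. In control, FN1 lay above PDPN with the longest transcript and below it with the joined exons (32.2 and 35.8 TPM).

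No shared effect of the replicate number was seen. Same-numbered libraries had correlations of deviations of -0.038, 0.032 and -0.037, and 2 of the 6 libraries correlated best with their own number. These values do not tell whether same-numbered samples were prepared together. With the replicate number as a block 3 of the 10 genes were higher and 5 lower, the same counts as without it, and 3484 genes were higher and 3682 lower over the table. ZEB1 and COL1A2, at 18 to 75 and 22 to 50 counts per library, are the genes for which depth limits the precision most.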
